A study of Mus musculus with 6 samples.

Results

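CC chemokines are small secreted proteins named for a pair of neighbouring cysteines, and they draw leukocytes into tissue by binding receptors on the cell surface. CCR2, one of those receptors, lets inflammatory monocytes leave the bone marrow and follow CCL2, CCL7 and CCL12, and in the mouse heart macrophages that derive from CCR2+ monocytes are known to gather after pressure overload or injury. The genes described here are 9 CC chemokine genes, Ccl2, Ccl3, Ccl4, Ccl6, Ccl7, Ccl8, Ccl9, Ccl11 and Ccl12, and the receptor gene Ccr2. They were chosen by symbol, with earlier results of these data known. Each matched 1 row, so that they make up 10 of the 22298 genes in the deposited table.

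Poly(A)-selected RNA was sequenced from hearts of female wild-type mice aged 18 months, 3 after TAC surgery and 3 after sham surgery. TAC is the usual abbreviation for transverse aortic constriction, which loads the left ventricle with pressure. The sources used here give neither the strain, the time from surgery to sampling nor the part of the heart taken. The sample titles number the hearts 1 to 3 within each group, so the libraries of a group are taken as separate hearts. Depth was 22172718 to 25799573 estimated counts in TAC libraries and 19747265 to 27549838 in sham libraries. Markers of heart muscle were abundant in every library, with 14380 to 17610 summed FPKM over 5 genes in TAC and 16650 to 17210 in sham, and none of the 5 passed the edgeR test between groups. Myh6 and Ryr2 had every TAC value under every sham value, with log2 fold changes of -0.47 and -0.39 (edgeR adjusted p = 0.138 and 0.131). The groups overlapped for Tnnt2, Tnni3 and Actc1. Between libraries of 1 group the counts differed far more in TAC (78.2 to 100 for the chi-square over its degrees of freedom) than in sham (11.7 to 18.1).

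The cysteine pair that names the family is shown as DNA, because it is what these genes share in sequence while their levels in these hearts diverge. Each line is a stretch of 39 coding bases in GENCODE M21 (GRCm38), 5′ to 3′, with the 2 adjacent cysteine codons in capitals.
Ccl2: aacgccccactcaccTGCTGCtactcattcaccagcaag
Ccl7: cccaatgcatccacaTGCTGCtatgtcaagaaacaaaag
Ccl12: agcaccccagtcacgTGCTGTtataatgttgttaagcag
Ccl8: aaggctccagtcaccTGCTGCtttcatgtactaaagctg
Ccl11: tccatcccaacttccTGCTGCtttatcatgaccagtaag
Ccl6: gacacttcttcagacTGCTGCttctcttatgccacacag
Ccl9: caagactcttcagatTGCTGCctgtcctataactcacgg
Around those codons the sequences differ, and over whole coding sequences no pair of the 9 chemokine genes was more than 71.1% identical (Ccl2 and Ccl7, counted over the shorter sequence). The longest identical run in the alignment of Ccl2 with Ccl11 was 20 bases, and in that of Ccl6 with Ccl9 it was 23 bases. Ccr2 belongs to a family of similar receptor genes, so some of its reads could be shared and its counts are uncertain to that extent. The deposited counts of all 10 genes were whole numbers in the 6 libraries.

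The 9 chemokine genes lie in 2 groups on chromosome 11 (GRCm38). Ccl2, Ccl7, Ccl11, Ccl12 and Ccl8 stand in that order within 81.2 kb, from 82035571 to 82116799, all on the plus strand. Ccl9, Ccl6, Ccl3 and Ccl4 lie within 91.8 kb, from 83572919 to 83664683, with Ccl4 on the plus strand and the others on the minus strand. Ccr2 lies on chromosome 9, from 124101950 to 124113557 on the plus strand. All 10 are protein coding. Ccl2 lies inside Gm17268, a gene on the other strand that had a count of 0 in every library, and Ccl6 overlaps E230016K23Rik, a noncoding transcript on the other strand that was not analysed here.

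Every one of the 8 members with enough counts to test had a higher mean in TAC hearts, and 4 of them, Ccl8, Ccl11, Ccl6 and Ccr2, rose at an adjusted p under 0.05. Over all 13708 genes tested, 153 rose, or 1.12% (edgeR quasi-likelihood test, Benjamini-Hochberg adjustment over all tested genes). None of the members fell, where 74 genes, or 0.54%, fell over the table. The median log2 fold change of the 8 tested members was 2.63, against 0.03 for all tested genes. Ccl3 and Ccl4 were too low to be tested, and Ccl12 had sham counts under 10 in sham replicates 2 and 3, so it could pass the filter on low counts through its TAC libraries. Because the members were chosen with earlier results of these data known, these counts and medians describe them and test nothing over them. In all 8 tested members every TAC library had a higher CPM, counts scaled to TMM library sizes, than every sham library, as had 18.4% of all tested genes. The number called moved with single libraries and with the tool. It was 8 of 8 without TAC replicate 1 (13.2% of all tested genes rose), 1 of 8 without TAC replicate 2 (Ccl8; 0.145% rose) and 3 of 8 without TAC replicate 3 (Ccl8, Ccl11 and Ccl9; 0.59% rose). In log2 CPM over the tested genes, TAC replicate 1 correlated at 0.971 to 0.975 with the sham libraries (Pearson r). With TAC replicates 2 and 3 it correlated less, at 0.961 and 0.957. Without sham replicates 1, 2 and 3 in turn, edgeR called 0 of the 8, with all 8 at an unadjusted p under 0.05. Over all tested genes, 6 of 13959, 7 of 13923 and 4 of 13957 then rose at an adjusted p under 0.05. The share of all tested genes at an unadjusted p under 0.05 was not counted. DESeq2's Wald test on the 6 libraries called 7, the exception being Ccl7, and 7.81% of all tested genes. In whole heart tissue more cells of a type and more RNA per cell cannot be told apart.

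**Figure D1:**
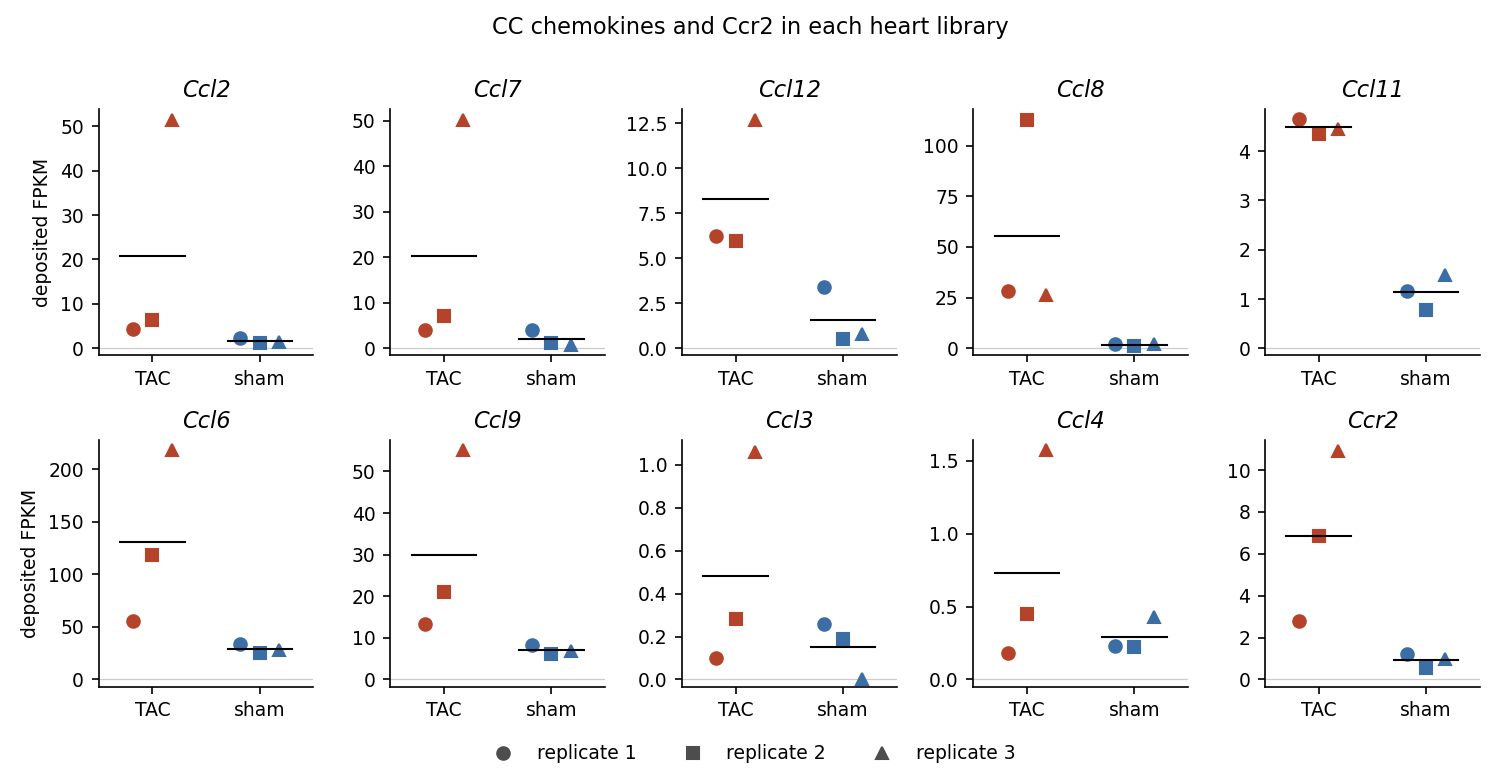
Deposited FPKM of the 9 CC chemokine genes and Ccr2 in each library, TAC left and sham right, with the group mean as a black line and a marker shape for each replicate number. Ccl8 peaked at 112.42 in TAC replicate 2, Ccl2 and Ccl7 peaked at 51.37 and 50.11 in TAC replicate 3, and Ccl11 lay between 4.35 and 4.66 in the TAC libraries.

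Ccl8 had the largest log2 fold change of the 8 tested members. In the mouse its protein signals through CCR8. The FPKM of Ccl8, its count scaled by gene length and library depth, was 28.29, 112.42 and 26.04 in TAC replicates 1, 2 and 3, against 1.98, 1.14 and 2.04 in sham replicates 1, 2 and 3. Its counts were 373, 1342 and 295 in TAC and 20, 16 and 22 in sham. The groups did not overlap, and TAC replicate 2 stood far above the other TAC libraries. The log2 fold change was 5.05 (standard error 0.69, approximate 95% interval 3.46 to 6.63), a fold of 33.1, with an edgeR adjusted p = 0.0227. Without TAC replicate 2 it was 3.97, with an adjusted p = 0.0042. Without sham replicates 1, 2 and 3 the adjusted p was 0.127, 0.151 and 0.143. Ccr8 itself had counts of 2, 7 and 1 in TAC and of 0, 0 and 1 in sham, too few to test.

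Ccl11 encodes eotaxin, which acts on eosinophils through CCR3, and it was the steadiest member among TAC hearts. It had 4.66, 4.35 and 4.46 FPKM in TAC replicates 1, 2 and 3, against 1.17, 0.77 and 1.49 FPKM in sham replicates 1, 2 and 3. Its counts of 130, 110 and 107 in TAC and 25, 23 and 34 in sham kept the groups apart. It was the only tested member whose highest TAC library was TAC replicate 1. The mean was 4.49 ± 0.157 FPKM in TAC and 1.14 ± 0.361 FPKM in sham (SD, n = 3 each), and the log2 fold change was 1.99 (standard error 0.28, approximate 95% interval 1.35 to 2.63, edgeR adjusted p = 0.0229). Without TAC replicate 2 the adjusted p was 0.0857, and without sham replicates 1, 2 and 3 it was 0.124, 0.127 and 0.0947. Ccr3, its receptor gene, had counts of 2, 15 and 3 in TAC and 6, 5 and 6 in sham.

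The 3 ligands of CCR2 among the members, Ccl2, Ccl7 and Ccl12, had high values in TAC replicate 3 but did not pass the test. Ccl2, whose product is the main chemoattractant of inflammatory monocytes, had 4.29, 6.42 and 51.37 FPKM in TAC replicates 1, 2 and 3, against 2.43, 1.25 and 1.40 FPKM in sham. Its counts were 90, 122 and 926 in TAC and 39, 28 and 24 in sham. The groups did not overlap, yet TAC replicate 3 was 10.8 times as high as TAC replicate 1 in CPM. Its log2 fold change was 3.56 (standard error 0.92, approximate 95% interval 1.44 to 5.68, edgeR adjusted p = 0.0759), and it was 1.70 without TAC replicate 3 (adjusted p = 0.0755). Without TAC replicate 1 the adjusted p was 0.0162.

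Ccl7, the gene next to Ccl2, had nearly the same pattern. It stood at 3.97, 7.05 and 50.11 FPKM in TAC replicates 1, 2 and 3, against 4.05, 1.09 and 0.71 FPKM in sham replicates 1, 2 and 3. Its counts were 82, 132 and 890 in TAC and 64, 24 and 12 in sham. TAC replicate 1 thus lay under sham replicate 1 in FPKM, while in CPM it lay just above, at 3.34 against 3.28. The log2 fold change was 3.35 (standard error 1.02, edgeR adjusted p = 0.0976), and without TAC replicate 1 the adjusted p was 0.0276. Without TAC replicate 3 the log2 fold change was 1.54, and without sham replicate 1 it was 4.38 (adjusted p = 0.168). In FPKM the ratio of Ccl7 to Ccl2 was 0.925, 1.10 and 0.975 in TAC replicates 1, 2 and 3, against 1.67, 0.872 and 0.507 in sham replicates 1, 2 and 3.

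Ccl12, which in the mouse also acts through CCR2, was spread less among TAC hearts. It had 6.21, 5.98 and 12.68 FPKM in TAC replicates 1, 2 and 3, against 3.39, 0.54 and 0.79 FPKM in sham replicates 1, 2 and 3. Its counts were 86, 75 and 151 in TAC and 36, 8 and 9 in sham. The groups did not overlap, and sham replicate 1 lay well above the other sham libraries, as it did for Ccl7. The log2 fold change was 2.41 (standard error 0.64, approximate 95% interval 0.93 to 3.88, edgeR adjusted p = 0.0795). It was 3.60 when sham replicate 1 was left out (adjusted p = 0.0715). Leaving out TAC replicate 1 gave an adjusted p of 0.0448.

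Ccl6 and Ccl9 had the highest means of the 9 chemokine genes in sham hearts on the FPKM scale. Both encode chemokines that myeloid cells make and that act through CCR1 in the mouse. Ccl6 had 55.80, 118.31 and 217.95 FPKM in TAC replicates 1, 2 and 3, against 33.51, 24.98 and 27.62 FPKM in sham replicates 1, 2 and 3. Its counts of 2073, 3980 and 6959 in TAC stood clear of 953, 991 and 839 in sham, and the TAC libraries differed among themselves by 3.51 times in CPM. Ccl6 rose, with a log2 fold change of 2.16 (standard error 0.40, approximate 95% interval 1.24 to 3.07, edgeR adjusted p = 0.0436). The adjusted p was 0.125 without TAC replicate 2 and 0.0506 without TAC replicate 3. It was 0.151, 0.223 and 0.235 without sham replicates 1, 2 and 3.

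Ccl9 followed Ccl6 library by library without passing the test. It had 13.32, 21.13 and 55.05 FPKM in TAC replicates 1, 2 and 3, against 8.39, 6.11 and 6.91 FPKM in sham replicates 1, 2 and 3. Its counts were 1033, 1484 and 3669 in TAC and 498, 506 and 438 in sham. The groups did not overlap. The log2 fold change was 2.03 (standard error 0.44, approximate 95% interval 1.02 to 3.04, edgeR adjusted p = 0.0602), and the adjusted p was 0.00787 without TAC replicate 1. Without TAC replicate 3 the log2 fold change was smaller, at 1.3, with an adjusted p of 0.0433. Ccl6 stood at 4.19, 5.60 and 3.96 times the FPKM of Ccl9 in TAC replicates 1, 2 and 3, against 3.994, 4.088 and 3.997 times in sham replicates 1, 2 and 3, so the ratio was off the sham values mainly in TAC replicate 2.

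Ccl3 and Ccl4 encode chemokines that activated macrophages and lymphocytes release, and both were close to the limit of detection. Ccl3 had counts of 2, 5 and 18 in TAC replicates 1, 2 and 3, against 4, 4 and 0 in sham replicates 1, 2 and 3. Ccl4 had counts of 3, 7 and 23 in TAC and 3, 4 and 6 in sham. The groups overlapped for both genes, and TAC replicate 3 had the highest count of each. In TAC replicate 3, the library with the highest values of both, they reached 1.06 and 1.57 FPKM.

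Ccr2, the receptor of the monocyte chemokines, was the member that passed the test outside chromosome 11. It had 2.79, 6.87 and 10.90 FPKM in TAC replicates 1, 2 and 3, against 1.24, 0.54 and 0.98 FPKM in sham replicates 1, 2 and 3. Its counts were 246, 548 and 792 in TAC and 83, 52 and 69 in sham, with no overlap. Ccr2 rose, with a log2 fold change of 2.86 (standard error 0.46, approximate 95% interval 1.80 to 3.93), a fold of 7.28, with an edgeR adjusted p = 0.0327. The adjusted p was 0.104 without TAC replicate 2 and 0.0506 without TAC replicate 3, and it was 0.131, 0.182 and 0.191 without sham replicates 1, 2 and 3. The length implied by its counts and FPKM ran from 3.28 to 3.50 kb over the libraries, so its FPKM scaled almost as its counts did.

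**Figure D2:**
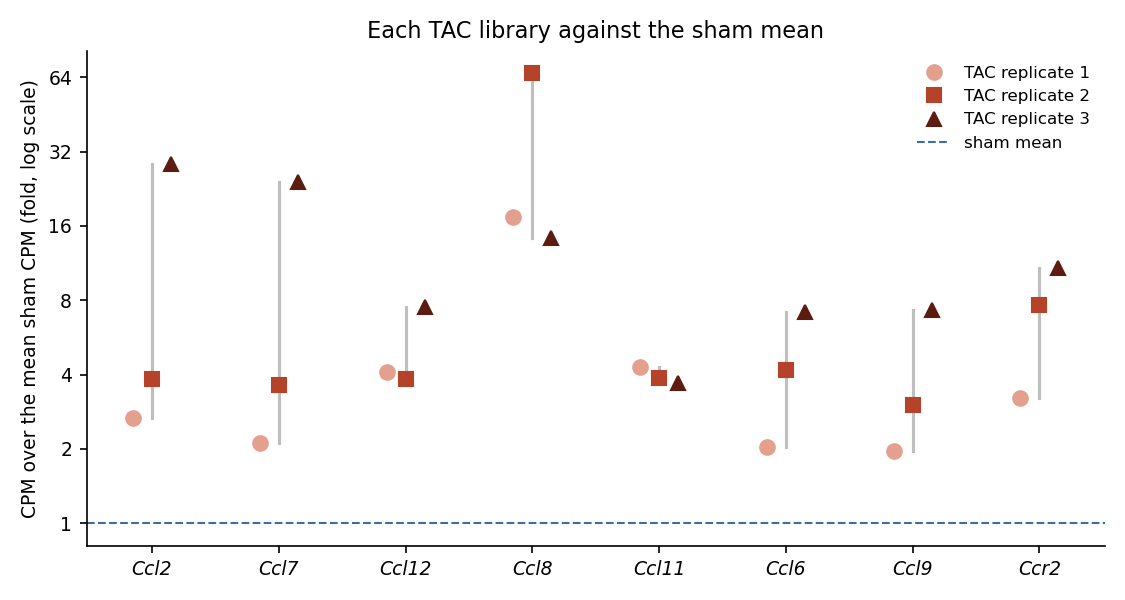
CPM of each TAC library divided by the mean CPM of the 3 sham libraries, on a log axis, for the 8 tested members, with the sham mean as a dashed line at 1. Ccl2 reached 28.5 in TAC replicate 3 and 2.66 in TAC replicate 1, Ccl8 reached 66.4 in TAC replicate 2, and Ccl11 stayed between 3.69 and 4.29.

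The members divided by which TAC heart was highest. TAC replicate 3 was highest for 8 of the 10 genes, TAC replicate 2 for Ccl8 and TAC replicate 1 for Ccl11. The share of all tested genes highest in each TAC library was not counted, so this describes the members only. Against the sham mean in CPM, TAC replicates 1, 2 and 3 stood at 2.66, 3.84 and 28.5 times for Ccl2 and at 17.3, 66.4 and 14.3 times for Ccl8. Ccr2 stood at 3.21, 7.63 and 10.8 times. After the group means were removed, the correlations of log2 CPM among Ccl2, Ccl6, Ccl7, Ccl9, Ccl12 and Ccr2 were 0.51 to 0.98 over the 6 libraries (15 pairs). For Ccl8 with the 7 other tested members they were -0.38 to 0.27, and for Ccl11 they were -0.21 to 0.27. The group from Ccl2 to Ccr2 holds the tested members highest in TAC replicate 3. Its higher correlations, and the lower ones of Ccl8 and Ccl11, were therefore partly fixed by that choice. These points also share libraries and depth, and 6 libraries are few, so the values are a description. Of the 7 pairs of adjacent members on chromosome 11, 4 were highest in the same TAC library (Ccl2 with Ccl7, Ccl9 with Ccl6, Ccl6 with Ccl3, and Ccl3 with Ccl4, each in TAC replicate 3). The other 3 pairs involve Ccl11 or Ccl8, and Ccl8 lies 11.8 kb from Ccl12. With 8 of the 10 members highest in TAC replicate 3, the shared peaks show nothing particular to neighbours.

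**Figure D3:**
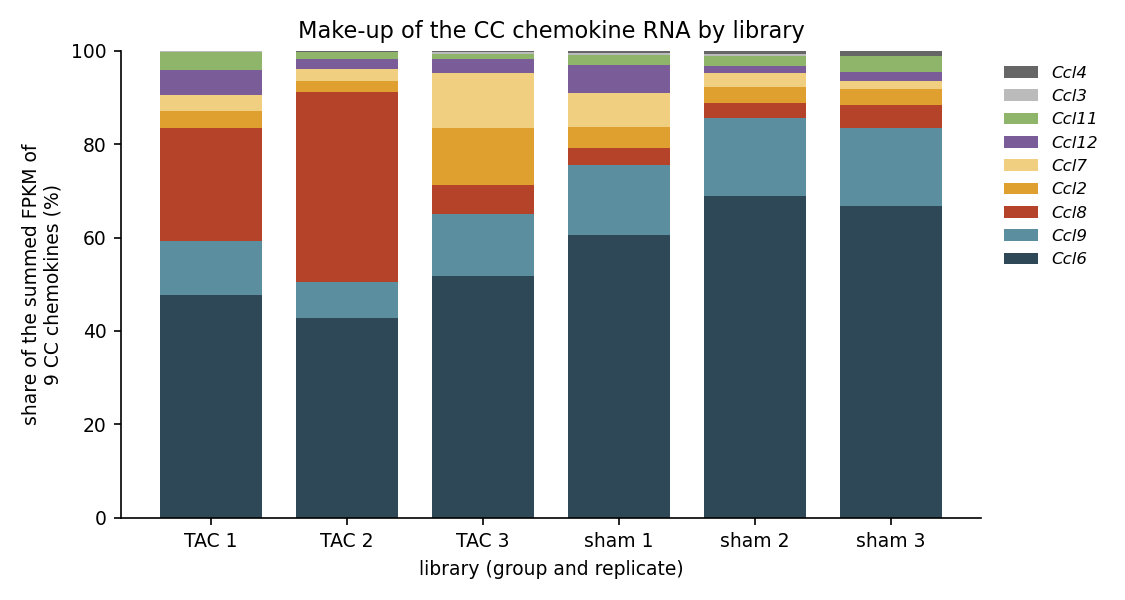
Share of each gene in the summed FPKM of the 9 CC chemokine genes, 1 bar per library, TAC left and sham right. Ccl6 and Ccl9 together took 50.5% to 65.0% in TAC and 75.6% to 85.7% in sham, and the share of Ccl8 was 24.2%, 40.7% and 6.196% in TAC replicates 1, 2 and 3.

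The make-up of the chemokine RNA also differed between libraries. Summed over the 9 genes, FPKM was 116.8, 276.4 and 420.3 in TAC replicates 1, 2 and 3, against 55.4, 36.3 and 41.4 in sham replicates 1, 2 and 3. Ccl6 alone made up 47.8%, 42.8% and 51.9% in TAC and 60.5%, 68.8% and 66.7% in sham. Ccl8 made up 24.2%, 40.7% and 6.196% in TAC, against 3.57%, 3.14% and 4.93% in sham, so that in TAC replicate 2 it nearly equalled Ccl6. In TAC replicate 3 Ccl2 and Ccl7 held 12.2% and 11.9%. The FPKM of Ccl8 was 6.59, 17.5 and 0.507 times that of Ccl2 in TAC replicates 1, 2 and 3, and 0.815, 0.912 and 1.46 times in sham, so TAC hearts lay on both sides of the sham hearts.

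Promoter sequence was at hand for 6 of the 10 members (Ccl3, Ccl6, Ccl8, Ccl9, Ccl12 and Ccr2). Those of Ccl8 and Ccl12, close neighbours with different patterns, and of Ccl6 and Ccl9, which moved together, are shown as the 250 bases before the RefSeq start (GRCm38.p6), 5′ to 3′ on the strand of the gene. Capitals mark every match, on either strand, to the motifs searched: TATAA of the TATA box, GAGGAA of PU.1, TGANTCA of AP-1, TTCNNNGAA of STAT factors, and the STAT6 and NF-kB motifs, given by name.
Ccl8, chr11:82114935-82115184, plus strand: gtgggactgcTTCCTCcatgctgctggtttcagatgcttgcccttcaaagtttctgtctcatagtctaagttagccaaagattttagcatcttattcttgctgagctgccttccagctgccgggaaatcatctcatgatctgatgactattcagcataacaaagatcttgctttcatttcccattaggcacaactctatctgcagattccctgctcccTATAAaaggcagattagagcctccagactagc
Ccl12, chr11:82101595-82101844, plus strand: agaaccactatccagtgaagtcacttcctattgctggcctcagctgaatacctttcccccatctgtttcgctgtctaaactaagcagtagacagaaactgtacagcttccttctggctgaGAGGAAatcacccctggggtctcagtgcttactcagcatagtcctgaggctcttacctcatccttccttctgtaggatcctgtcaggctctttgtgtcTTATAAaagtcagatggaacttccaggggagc
Ccl6, chr11:83593088-83593337, minus strand: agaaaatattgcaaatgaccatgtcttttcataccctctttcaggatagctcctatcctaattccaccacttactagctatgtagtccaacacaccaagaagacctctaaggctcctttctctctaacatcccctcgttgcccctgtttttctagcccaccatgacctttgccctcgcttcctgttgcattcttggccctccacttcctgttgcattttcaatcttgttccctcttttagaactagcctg
Ccl9, chr11:83578637-83578886, minus strand: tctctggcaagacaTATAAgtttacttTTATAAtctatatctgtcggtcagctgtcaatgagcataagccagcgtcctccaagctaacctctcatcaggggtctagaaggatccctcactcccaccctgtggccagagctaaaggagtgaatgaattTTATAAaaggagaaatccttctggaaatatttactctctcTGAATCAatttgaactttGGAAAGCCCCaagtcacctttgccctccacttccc
TATAA, in either direction, was found in 5 of the 6 member promoters and in 22.8% of the 32851 promoters of the RefSeq table. In Ccl8 it began 32 bases before the start, at -32, and in Ccl12 at -31. The matches lay elsewhere in the other promoters: at -11 and -162 in Ccl3, at -207 in Ccr2, and at -92 and further away in Ccl9. GAGGAA was found in 3 of 6 (Ccl3, Ccl8 and Ccl12), against 23.3% of the table. The NF-kB motif and TGANTCA each had a match in Ccl9 alone of the 6, against 7.3% and 6.7% of the table. Neither STAT motif was found in the 6 windows, and 7.0% and 5.9% of the table hold them. The Ccl6 window held none of the motifs, although its RNA followed that of Ccl9 across the libraries. Matches to TATAA on opposite strands overlapped each other in Ccl9 and Ccl12. The same stretch of Ccl9 matched TGANTCA on both strands, and no matches to different motifs overlapped. A match is a description of these letters and not a sign of binding.

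The rest of the CC chemokine system did not pass the test. Of 12 other CC chemokine genes 6 were tested, and of 13 other receptor and scavenger genes 8 were tested. None of these 14 passed in either direction with edgeR (1.12% of all tested genes rose). At an unadjusted edgeR p under 0.05, 6 were higher, and the share of all tested genes at that level was not counted. DESeq2's Wald test called 5 higher, Ccl19, Ccl21a and Ackr1 among them (7.81% of all tested genes rose). Ackr1, with sham counts of 12, 7 and 8, had a log2 fold change of 2.36 (standard error 0.61, edgeR adjusted p = 0.0745). The median log2 fold changes were 0.65 for both lists. Among the other ligands Ccl21a and Ccl24 had the highest mean FPKM. Ccl21a, which guides lymphocytes and dendritic cells along lymph vessels, was at 53.7, 56.4 and 37.6 CPM in TAC replicates 1, 2 and 3, against 30.3, 32.7 and 34.0 CPM in sham (log2 fold change 0.61, standard error 0.16, edgeR adjusted p = 0.0814). Unlike those of the members, its estimated counts were not whole numbers. Ccl24, another ligand of CCR3, had a log2 fold change of -0.54 (standard error 0.34, adjusted p = 0.345), on the other side of 0 from Ccl11.

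Among the other receptors Ccrl2, which binds chemerin, had the highest mean FPKM. It had a log2 fold change of -0.28 (standard error 0.12, edgeR adjusted p = 0.186). Ccr1 was named after its values were seen, because CCL6 and CCL9 act through its product. Ccr1 had 0.99, 3.14 and 8.66 FPKM in TAC replicates 1, 2 and 3, against 1.57, 0.82 and 1.12 FPKM in sham (log2 fold change 1.82, standard error 0.65, adjusted p = 0.131). It was highest in TAC replicate 3 and within the sham range in TAC replicate 1. Without TAC replicate 1, 5 of the 14 genes passed, Ccr1 and Ccl19 among them (13.2% of all tested genes then rose).

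**Figure D4:**
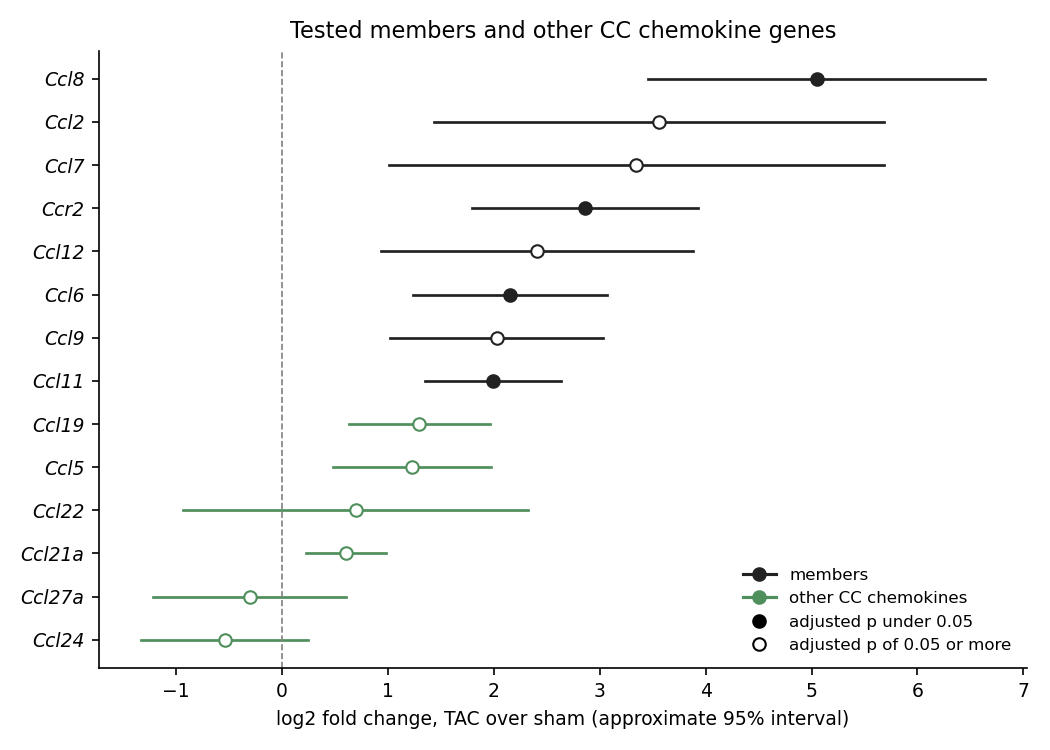
Log2 fold change of TAC over sham with its approximate 95% interval for the 8 tested members and the 6 other tested CC chemokine genes, filled where the edgeR adjusted p was under 0.05. The 4 filled points are Ccl8, Ccr2, Ccl6 and Ccl11, and the 6 other CC chemokine genes are open.

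Genes that switch on or carry the signal for CC chemokines did not pass the test over the 6 libraries. Of 19 listed cytokine, NF-kB and STAT genes 12 were tested. At an unadjusted edgeR p under 0.05, 3 were higher, and the share of all tested genes at that level was not counted. None of the 12 passed with edgeR, and their median log2 fold change was 0.14. DESeq2's Wald test called 2 of them higher, Il1b and Nfkbiz (7.81% of all tested genes rose). The 2 with the highest mean FPKM were Nfkbia, the inhibitor of NF-kB that NF-kB itself induces (log2 fold change 0.56, standard error 0.17, edgeR adjusted p = 0.0993), and Stat6, which carries interleukin 4 and 13 signals (0.08, standard error 0.10, adjusted p = 0.669). Il1b, the gene of the inflammatory cytokine interleukin 1 beta, was singled out after its values were seen. It had 0.74, 3.85 and 12.67 FPKM in TAC replicates 1, 2 and 3, against 0.93, 0.46 and 0.56 FPKM in sham (log2 fold change 3.11, standard error 0.87, adjusted p = 0.0844). TAC replicate 1 lay within the sham range. Without TAC replicate 1, Il1b, Il6, Nfkbiz and Tnfaip3 passed (13.2% of all tested genes then rose). Il6, another inflammatory cytokine gene, was too low to test over the 6 libraries, with counts of 4, 18 and 79 in TAC replicates 1, 2 and 3, against 1 in each sham library. Of 9 genes of CCR2 signalling and monocyte movement none passed, 6 had every TAC value above every sham value (18.4% of all tested genes), and the median log2 fold change was 0.72. The G protein gene Gnai2 and the growth factor receptor gene Csf1r, with the highest mean FPKM in that list, had log2 fold changes of 0.20 (standard error 0.12, adjusted p = 0.329) and 0.24 (standard error 0.16, adjusted p = 0.352).

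Some markers of blood cells were also higher in TAC hearts. Over all tested genes, 1.12% rose with edgeR. Of 9 inflammatory monocyte markers, 3 rose (Chil3, Plac8 and F13a1), and their summed FPKM was 91.8, 158.9 and 277.8 in TAC replicates 1, 2 and 3, against 64.3 to 81.0 in sham. Of 9 macrophage markers, Cd68 and Mrc1 rose, and the sum was 369.0, 538.2 and 409.4 in TAC, against 215.7 to 278.2 in sham. The neutrophil list, with 3 of 6 tested members higher (S100a8, S100a9 and Mmp8), summed to 31.0, 175.7 and 185.4 in TAC, against 2.58 to 10.8 in sham. S100a8, with sham counts of 27, 5 and 7, and Mmp8, with sham counts of 4, 1 and 2, could pass the filter on low counts through their TAC libraries. The sums of the monocyte and neutrophil lists had the TAC library order of Ccl2, Ccl6, Ccl9 and Ccr2, and the sum of the macrophage list peaked in TAC replicate 2 as Ccl8 did. Single markers differed from their sums: 6 of 9 monocyte markers and 4 of 7 neutrophil markers had that order in FPKM. The monocyte exceptions were Plac8, lowest in TAC replicate 2, and Ly6c2 and F13a1, highest there. Ly6c2 had 1.48, 16.1 and 3.45 FPKM in TAC replicates 1, 2 and 3. Fn1, the largest part of the monocyte sum in TAC replicate 3 at 86.07 FPKM, did not pass (edgeR adjusted p = 0.477). The neutrophil exceptions, S100a8, Ly6g and Retnlg, were highest in TAC replicate 2. Of 9 macrophage markers 7 were highest in TAC replicate 2, with Cd68 and Fcgr1 highest in TAC replicate 3. No marker of these lists was at 0 in all libraries, although Ly6g had 3, 7 and 2 counts in TAC and 0 in each sham library. The part of these cells in the levels of the chemokine genes was not tested.

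TAC replicate 2, where Ccl8 peaked, also had the highest sums of B cell and eosinophil markers. Summed FPKM of 4 B cell markers was 6.22, 22.3 and 5.24 in TAC replicates 1, 2 and 3, against 2.87 to 5.18 in sham, and none of the 4 passed. The 6 eosinophil markers were too low to test, and their sum was 0.21, 3.00 and 0.45 in TAC, against 0.11 to 0.38 in sham. Of these 6, 4 were highest in TAC replicate 2 in FPKM. Siglecf, with counts of 0, 3 and 15 in TAC, was highest in TAC replicate 3. Il5ra, with counts of 7, 3 and 3 in TAC, was highest in TAC replicate 1. Prg2, an eosinophil granule protein gene, had 33 counts in TAC replicate 2 and 2 or fewer in each other library, and Epx, the eosinophil peroxidase gene, had 13 there and 0 elsewhere. Ccl11 did not share this pattern, since its 3 TAC values were close together. The part of these cells in the result for Ccl8 was not tested.

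The other marker lists gave 3 calls, where over all tested genes 1.12% rose and 0.54% fell. The 4 markers of resident cardiac macrophages had none that passed, and their sum was 88.5 to 101.1 in TAC and 54.9 to 67.9 in sham. Dendritic cell markers (5 tested, none passed) summed to 2.71 to 4.64 in TAC and 1.79 to 2.28 in sham. Mast cell markers (5 of 6 tested, none passed) summed to 7.28 to 14.7 in TAC and 11.9 to 15.2 in sham. T and NK cell markers (4 of 7 tested, none passed) summed to 3.63 to 6.70 in TAC and 2.73 to 3.77 in sham. The red blood cell list had 2 of 6 that rose (Slc4a1 and Alas2) and summed to 5217, 2987 and 3887 FPKM in TAC replicates 1, 2 and 3, against 1466 to 2552 in sham, with no overlap. Slc4a1, with sham counts of 1, 11 and 9, could pass the filter through its TAC libraries. Fibroblast markers (5 tested, none passed) summed to 465.9 to 723.8 in TAC and 645.1 to 721.6 in sham. Of 4 endothelial markers Tie1 fell, and their sum was 238.7 to 279.6 in TAC and 313.7 to 341.5 in sham. Atrial markers (4 tested, none passed) summed to 3046 to 3562 in TAC and 2503 to 3786 in sham, most of it Nppa (log2 fold change 0.38). The other atrial markers had negative log2 fold changes, -0.96 for Sln, where every TAC CPM lay under every sham CPM, -0.60 for Myl7 and -0.49 for Myl4.

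**Figure D5:**
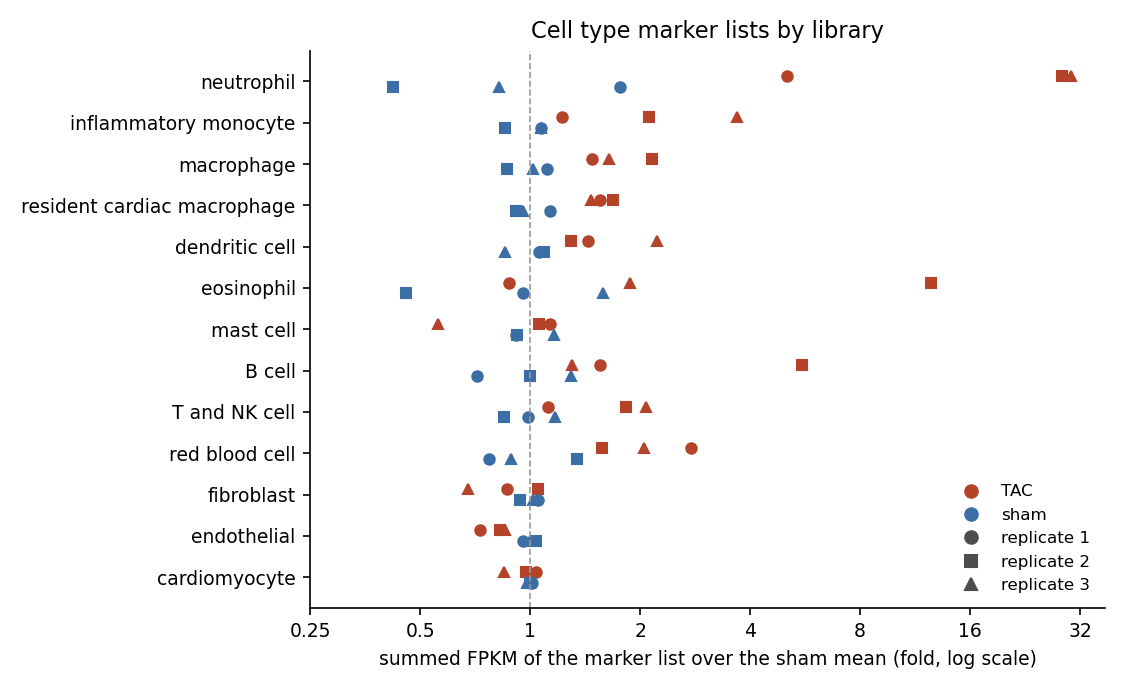
Summed FPKM of each marker list divided by its sham mean, on a log axis, with TAC above sham in each row and a marker shape for each replicate number. The neutrophil list stood at 5.04, 28.6 and 30.2 in TAC replicates 1, 2 and 3, and the eosinophil and B cell lists reached 12.5 and 5.55 in TAC replicate 2.

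The genes outside the family whose log2 CPM was most like that of Ccl8 and Ccr2 over the 6 libraries were described by Pearson correlation, taken over tested genes that averaged 1 CPM or more. For Ccl8 the 5 highest were Adgrg6, Bdh1, Daam1, Cds1 and Nbea, with r from 0.989 to 0.995. Bdh1, a ketone body enzyme gene, had 172.2, 230.5 and 139.7 CPM in TAC replicates 1, 2 and 3, against 69.9, 60.2 and 62.3 CPM in sham replicates 1, 2 and 3, and rose by 1.496 on the log2 scale (standard error 0.19, edgeR adjusted p = 0.0155). For Ccr2 they were Acsl5, Ncf4, Nckap1l, Jak3 and Fermt3, with r from 0.996 to 0.999. Nckap1l, a cytoskeleton gene of blood cells, had 30.4, 44.2 and 49.3 CPM in TAC and 19.8, 15.5 and 19.7 CPM in sham (log2 fold change 1.17, standard error 0.20, adjusted p = 0.0363). With 13708 genes and 6 libraries, correlations this high are a description of library order.

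The genes that lie among or within 200 kb of the chemokine genes on chromosome 11, other than CC chemokine genes, gave 1 call. Of the 16 that had a row, 7 were tested and 1 passed (1.12% of all tested genes rose). That gene, Wfdc17, lies beyond Ccl4 and encodes a secreted protein of activated macrophages. Its log2 fold change was 1.94 (standard error 0.30, edgeR adjusted p = 0.0317), with a mean of 34.4 CPM in TAC and 8.97 CPM in sham.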

How the data were processed

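Per the labels' protocols, RNA was extracted with Trizol, enriched on oligo(dT) beads and made into NEBNext Ultra libraries for an Illumina Novaseq instrument. Whether strand was kept is not stated. Per the file headers, the deposited table gives an estimated count and an FPKM value for each gene and library. The build GRCm38 and the tools StringTie 1.3.1, HISAT2, Bowtie2 2.2.8 and DESeq2 are named in the submitters' processing notes. The sources used here do not give the role of each tool, the annotation or any filter. GENCODE M21 (GRCm38) named 22255 of 22298 identifiers. After rounding, the estimated counts went into edgeR 4.0.16 under R 4.3.3 (glmQLFit and glmQLFTest, TMM scaling, filterByExpr at its minimum count of 10), TAC against sham, two-sided, over 13708 genes, with a threshold of 0.05. The SE is the log2 fold change divided by the square root of F, and the 95% interval uses that SE; both are approximate. The fit was tested on simulated data of 13464 genes, where 100% of 100 genes changed 4-fold (log2 of 2) and 64% of 100 changed 2-fold (log2 of 1) were recovered and 12 unchanged genes were called. The simulation gave every gene and both groups a common dispersion of 0.0473, with means taken from sham. The real TAC libraries varied more than the sham libraries, so these shares do not give the power in these data. The members and lists were chosen with earlier results of these data known. Named genes were every member, each list's called genes or its 2 most abundant, and the 5 genes most like Ccl8 and Ccr2; 1 gene the rule names is not reported here. Ccr1, Ccr3, Ccr8, Ackr1, Il1b, Il6, Nfkbiz, Tnfaip3, Ly6g, Prg2, Epx, Siglecf, Il5ra, Myh6, Ryr2 and Wfdc17 were named after their values were seen. So were Ly6c2, Fn1 and Retnlg. Alternatives used limma 3.58.1 and DESeq2 1.42.0.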

Additional observations from a re-analysis of the deposited data

How the results depend on the processing

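The 8 tested members kept a positive log2 fold change in all 125 alternative values, but their calls moved with the tool and with single libraries. Members called higher numbered 4 in the main test and likewise with DESeq2 size factors or upper-quartile factors. They also numbered 4 with no filter on low counts (where 10 members were tested) or a minimum count of 100 (where 5 members were tested). The DESeq2 Wald test called 7 members, 5 other CC genes and 2 upstream genes, and over all genes 1071 higher and 598 lower, against 153 and 74 in the main test. Limma-voom called 1 member (96 genes higher). Limma-trend on log2(FPKM + 1) called 2 members and 1 other CC gene (59 genes higher), and with a pseudocount of 0.1 it again called 2 and 1 (64 higher). Limma-trend on log2(FPKM + 1) without a filter tested 10 members and called 0 (17 genes higher and 13 lower). In that fit 8 members were at an unadjusted p under 0.05, and the share of all genes at that level was not counted. With 1 library left out, members called ranged from 0 (without any 1 sham library, with 8 at an unadjusted p under 0.05 in edgeR) to 8 (without TAC replicate 1). Over the same 6 fits other CC genes called ranged from 0 to 5, upstream genes from 0 to 4, all genes higher from 4 to 1837 and all genes lower from 8 to 1392. Replicate numbers did not pair the libraries: deviations from the group mean correlated at 0.011, -0.111 and -0.0245 for numbers 1, 2 and 3. With the replicate block 1 member, Ccl8, was called, and 48 genes were higher and 26 lower. The causes of these shifts were not tested. No scaling moved the median of all genes by more than 0.1 on the log2 scale. Depth limits Ccl3, Ccl4 and the eosinophil markers, which were not tested in the main fit. Ccl3 and Ccl4 were among the 10 members tested where no filter was used, and neither was called.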
